A study of Mus musculus with 6 samples.

Results

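The genes described here encode the machinery that fuses vesicles with membranes: SNARE proteins, the proteins that load, prime and take apart SNARE complexes, the synaptotagmins, and proteins of synaptic vesicles. Members were chosen by gene symbol, with earlier results of these data known. Syntaxins, VAMPs, syntaxin-binding proteins, synaptotagmins, RIMs and complexins were taken with any number after the family name, together with Snap23, Snap25, Snap29, Snap47, Snap91, the Munc13 genes (Unc13a to Unc13d), the synapsins, the SV2 genes, Nsf and the SNAP adaptors Napa, Napb and Napg. This gave 62 of the 13931 genes listed, and 46 of the 62 had an average above 1 on the log2 CPM scale (CPM, reads on a gene scaled to the size of the library).

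Lens RNA of newborn mice (postnatal day 0) was sequenced as 3 control and 3 Celf1cKO libraries, each of which pooled 2 lenses. Celf1 is an RNA-binding protein that acts on splicing, stability and translation of its target mRNAs. Celf1cKO mice, of mixed C57BL/6 and FVB background, carried a germline knockout allele (Celf1lacZKI), a conditional allele (Celf1flox) with an exon between loxP sites, and the Pax6GFPCre transgene, whose Cre is expressed from the lens placode stage and also in the pancreatic lineage. Control libraries are labelled Celf1lacZKI/+, so that controls would also carry the germline knockout allele. The methods, however, give Cre-negative Celf1flox mice as the default control, and the control genotype is not settled here. The comparison asks which of these genes differ in level between Celf1cKO and control lenses.

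In membrane fusion, a syntaxin (the Qa SNARE), SNARE helices of the SNAP-25 type (Qb and Qc) and a VAMP (the R SNARE) on the opposite membrane zip into a bundle that pulls the membranes together. Munc18 proteins hold and template syntaxin, Munc13 proteins open it, synaptotagmins sense calcium or trap membranes, complexins clamp the bundle, and NSF with its SNAP adaptors takes the spent bundle apart. Lens fiber cells elongate by adding membrane, place channels and junctions on it and then degrade their organelles, all of which use membrane traffic, and the lens is known to express several genes otherwise studied in neurons.

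Reads on listed genes numbered 40694454 to 44387151 per library. Celf1 itself read 9.95, 9.94 and 9.34 log2 CPM in Control 1, 2 and 3 against 8.93, 7.66 and 7.83 in Celf1cKO 1, 2 and 3, a log2 fold-change of −1.60 ± 0.33 (SE, limma adjusted p = 0.0269). The residual reads can come from exons other than the deleted one and from cells without Cre, which gene-level values cannot separate. Lens fiber markers summed to 113122 to 136331 CPM in controls and 93338 to 99724 CPM in Celf1cKO lenses, so both groups hold the labelled tissue. Lens epithelium markers (7 of 8 listed genes measured) summed to 890 to 957 CPM in controls and 305 to 650 CPM in Celf1cKO lenses. Endothelial markers (6 of 6) were at 85.2 to 106 CPM in controls and at 103, 21.8 and 49.3 CPM in Celf1cKO 1, 2 and 3. Neuron and retina markers (7 of 14) were at 18.5, 18.4 and 32.7 CPM in Control 1, 2 and 3 and lower in every Celf1cKO library, down to 7.64 CPM in Celf1cKO 2. In bulk lens RNA, fewer cells of a type and less RNA per cell cannot be told apart. The p-values measure the spread between these 6 libraries.

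Calls required an adjusted p under 0.05, a log2 fold-change beyond 0.58 (up or down) and a mean level above 1 log2 CPM. Of the 62 members, 8 rose in Celf1cKO lenses, among them Unc13c, Syn2, Nsf, Snap29, Stx4a, Sv2a and Stx7, and 1 fell, namely Stx11. The other 53 were not called. The share that rose was 12.9% of the 62, where 4.77% of all genes rose, and the share that fell was 1.61%, where 2.63% of all genes fell. Over genes with an average above 1, it was 17.4% of the 46 members against 6.24% of all genes for higher, and 2.17% against 3.44% for lower. All Celf1cKO libraries lay above all controls in 20 of the 46 members, where 23.1% of the 10640 genes above 1 did so. They all lay below in 5 of the 46, where 16.9% of those 10640 genes did. The median log2 fold-change of the 46 was 0.19 against 0.00 for all genes above 1, and 32 of the 46 values were positive. With the replicate number as a block, 9 members rose and 2 fell, where 5.43% and 3.75% of all genes did, the additions being Vamp1 and Stxbp2. The calls depend on single libraries: without Control 2 or without Celf1cKO 3 no member was called, and 1 gene of all was. Leaving out Control 1, Control 3 or Celf1cKO 2 gave 3, 4 and 1 members higher, where 418, 321 and 305 of all 13931 genes were. Without Celf1cKO 1, 10 members were higher and 3 lower, where 1039 and 877 of all genes were. The log2 fold-changes of the 9 called members kept their direction in all these fits. In 7 of the 9 called members Celf1cKO 1 was the knockout library nearest to the controls, a position it held in 85.4% of all 1030 called genes.

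**Figure D1:**
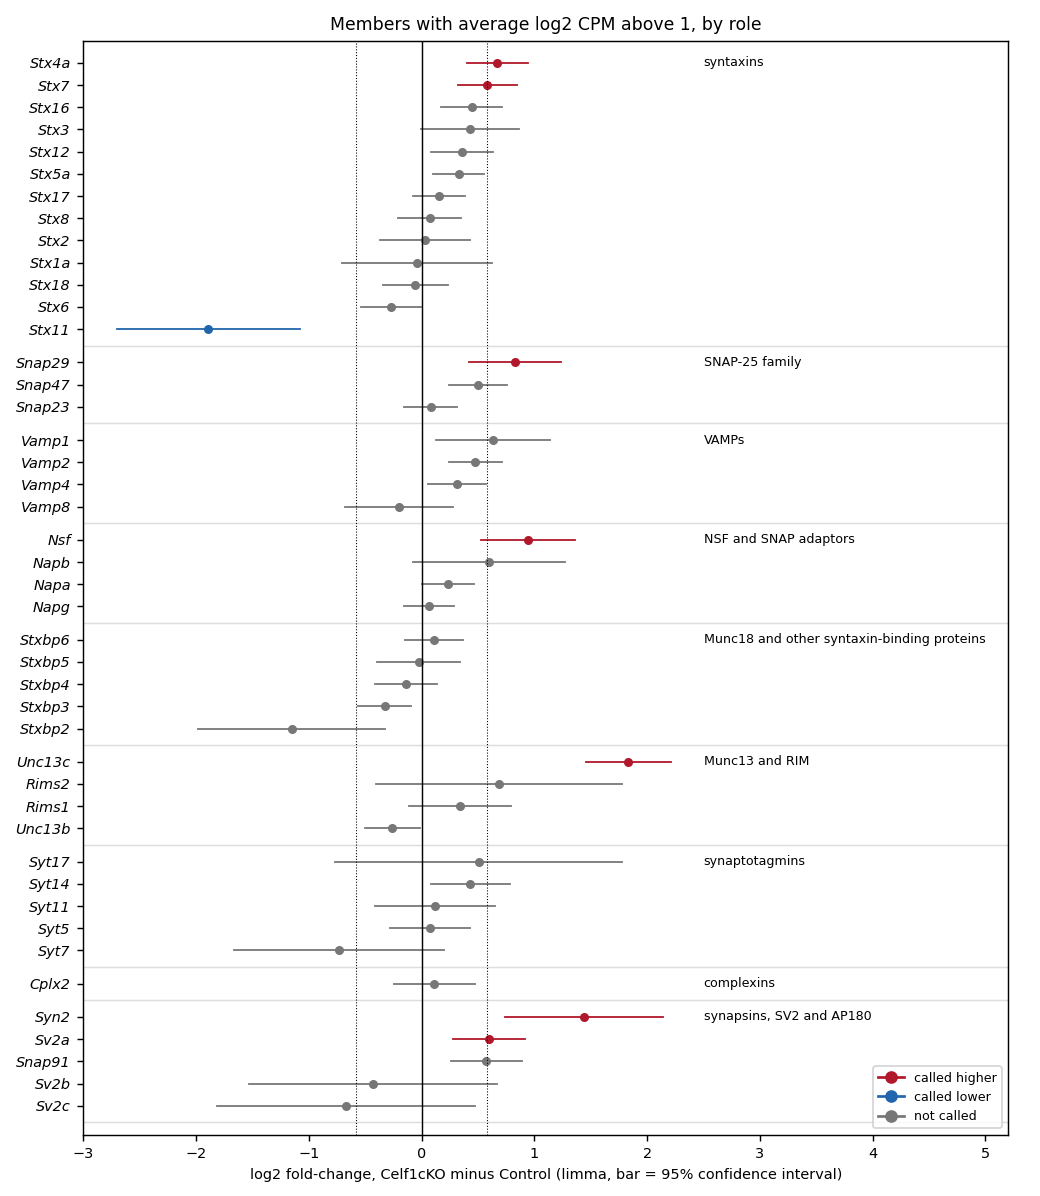
Log2 fold-change (Celf1cKO minus Control, x axis) of 44 members with average log2 CPM above 1, grouped by role, with 95% confidence intervals from limma and dotted lines at the fold-change threshold of 0.58 in both directions. The 7 plotted members that rose (red) include syntaxins, Snap29, Nsf, Unc13c and vesicle proteins, and Stx11 (blue) lies farthest to the left at −1.89.

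Celf1 is known to bind GU-rich RNA. The letters TGTTTGT and TGTGTGT were therefore searched on the sense strand of the annotated 3′ UTR of each member (GENCODE M21 transcripts, GRCm38), overlapping copies counted, and the copies of the 2 strings can share bases. TGTTTGT was in 41.9% of the 62 members, at 0.359 copies per kb, where 29.5% of 13083 genes with an annotated 3′ UTR had it at 0.321 per kb. TGTGTGT was in 59.7% of members, at 1.82 per kb, against 33.4% of those genes at 0.946 per kb. The median 3′ UTR was 1986 bases in members and 1173 bases in all those genes. In the 8 members called higher, 62.5% had TGTTTGT, against 37.7% of the 53 members not called. For TGTGTGT these shares were 50.0% and 60.4%, and for either string 75.0% and 69.8%. Over all genes with an annotated 3′ UTR, TGTTTGT was in 45.9% of those called higher and in 28.7% of those not called. TGTGTGT was in 50.8% and 32.4% of these, and either string in 66.8% and 45.8%. Among the called members, Unc13c and Nsf had neither string. A 30-base stretch of the 3′ UTR of 6 others is shown here because these genes carry the expression differences described next, with the searched strings in capitals and read 5′ to 3′ on the transcript strand. A match of letters is a description, not a binding site.
Syn2 (chr6:115276069-115276098, plus strand): tacattttTGTTTGTTTGTTTGTtttttaa
Stx11 (chr10:12938665-12938694, minus strand): ttggatttTGTTTGTTGTTTGTttttcaca
Stx4a (chr7:127848917-127848946, plus strand): ttttcaatgtccTGTTTGTctgggatacat
Stx7 (chr10:24188166-24188195, plus strand): ccttaacataacTGTTTGTgggatgtttta
Sv2a (chr3:96194535-96194564, plus strand): TGTGTGTgcgtgcgcaTGTGTGTGTGTGTG
Snap29 (chr16:17430342-17430371, plus strand): tatcagtggtTGTGTGTGTGTcggggggag
Syn2, which rose, had 5 copies of TGTTTGT and Stx11, which fell, had 4, while Unc13c, with the largest rise among members, had none.

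Among syntaxins, which form the Qa or Qc part of the SNARE bundle, 2 of 14 rose and 1 fell. Stx4a (chr7:127824294-127849019), the syntaxin of constitutive and regulated fusion at the plasma membrane, read 3.76, 3.85 and 3.97 log2 CPM in Control 1, 2 and 3 and 4.41, 4.62 and 4.56 in Celf1cKO 1, 2 and 3. The groups did not overlap and the controls lay within a narrow band. Stx4a rose 1.59-fold (log2 fold-change 0.67 ± 0.12, limma adjusted p = 0.0167). Stx7 (chr10:24149302-24190222), a syntaxin of late endosomes and lysosomes, read 4.84, 4.69 and 4.66 in controls and 5.19, 5.47 and 5.28 in Celf1cKO lenses. All 3 Celf1cKO values lay above the controls, and the log2 fold-change of 0.58 ± 0.11 (adjusted p = 0.0200) sat at the threshold.

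Stx11 (chr10:12938209-12964298), a lipid-anchored syntaxin best known from granule release by cytotoxic lymphocytes, was the one member that fell. It read 6.07, 6.56 and 6.52 log2 CPM in controls and 5.31, 3.86 and 4.30 in Celf1cKO lenses. No Celf1cKO library reached any control, and Celf1cKO 2 was the lowest, as it was for Celf1 and for the lens epithelium and endothelial markers. Stx11 was 3.71-fold lower (log2 fold-change −1.89 ± 0.35, limma adjusted p = 0.0190). The part that those cell types or the level of Celf1 had in this was not tested. Among syntaxins that were not called, Stx16 and Stx6, which act between endosomes and the trans-Golgi, differed by 0.44 (adjusted p = 0.0512) and −0.27 log2 (adjusted p = 0.153). Within the plasma membrane syntaxins Stx1a, Stx2, Stx3, Stx4a and Stx11, counted as reads per kb of exon, Stx11 made up 55.6% ± 5.80 (SD, n = 3) in controls and 21.2% ± 10.3 in Celf1cKO lenses. Stx4a made up 17.1% ± 0.783 in controls and 36.2% ± 4.43 in Celf1cKO lenses. Stx3, which serves apical and regulated fusion, made up 15.4% ± 3.71 and 27.0% ± 4.66, and its difference of 0.43 log2 was not called (adjusted p = 0.172).

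**Figure D2:**
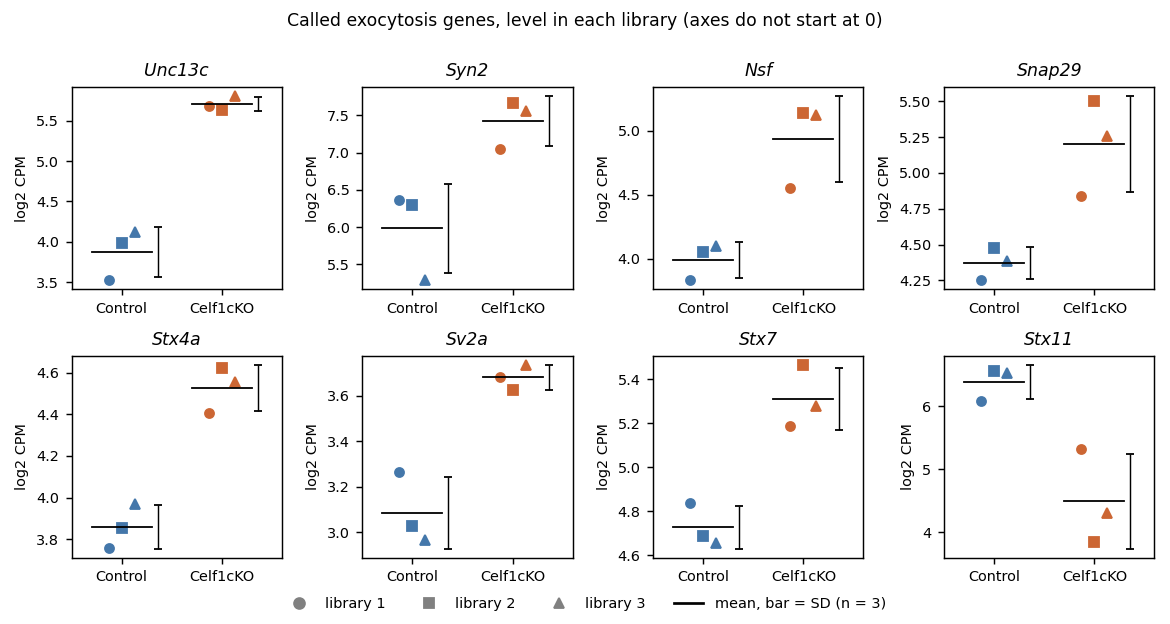
Log2 CPM of 8 called members in each library (circle, square and triangle mark libraries 1, 2 and 3), with the group mean as a line and the SD as a bar (n = 3), on axes that do not start at 0. Stx11 is the panel in which the Celf1cKO points lie below the controls, and Celf1cKO 1 is the knockout point closest to the controls in all panels but those of Unc13c and Sv2a.

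Of the SNAP-25 family, which gives the Qb and Qc helices of a bundle, Snap29 rose and 3 members were not called. Snap29 (chr16:17405986-17430827), which pairs with syntaxin 17 in autophagosome fusion and acts in endosomal and ciliary traffic, read 4.25, 4.48 and 4.38 log2 CPM in controls and 4.84, 5.50 and 5.26 in Celf1cKO lenses. The groups were apart, with Celf1cKO 1 the lowest knockout value, and Snap29 rose 1.78-fold (log2 fold-change 0.83 ± 0.17, adjusted p = 0.0269). Snap29 shares 60 exon bases, 1.74% of its exons, with Pi4ka on the opposite strand, and whether counting used strand is not given in the sources used here. Snap47, a widely expressed relative that was the most abundant of the family per kb, read 5.80 to 6.04 in controls and 6.23 to 6.52 in Celf1cKO lenses, a log2 fold-change of 0.50 (adjusted p = 0.0317) under the fold threshold. It shares 11.6% of its exon bases with Jmjd4 on the opposite strand. Snap23, the widespread plasma membrane member, differed by 0.08 log2 (95% confidence interval −0.16 to 0.32). Snap25, the neuronal member, had between 2 and 178 reads in a library, and Control 3 stood apart at 2.19 log2 CPM against −3.33 and −3.31 in the other controls.

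None of the 6 VAMPs was called by limma without a block, and 4 of them had an unadjusted p under 0.05, as did 29.9% of all genes. None was called by limma voom on recovered reads either. Vamp2, the main R SNARE of regulated exocytosis, read 5.91, 5.63 and 5.68 log2 CPM in controls and 6.18, 6.18 and 6.29 in Celf1cKO lenses. These groups were apart and the difference was small, at 0.48 ± 0.10 log2 (adjusted p = 0.0275), under the fold threshold. Vamp1, its close relative, read 3.88, 4.25 and 4.03 in controls and 4.24, 5.06 and 4.77 in Celf1cKO lenses, a difference of 0.63 ± 0.21 (adjusted p = 0.0989) with groups that overlapped. With the replicate number as a block, Vamp1 was called higher (blocked adjusted p = 0.0306). Vamp8, an endosomal and autophagosomal R SNARE, differed by −0.20 log2 (95% confidence interval −0.68 to 0.27). Below the level threshold, Vamp5 had values of −1.48 log2 and Vamp9 of −0.85 log2 with non-overlapping groups, from 5 to 44 and 6 to 18 reads per library.

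Nsf, the ATPase that separates used SNARE bundles, rose 1.92-fold while its adaptors were not called. Nsf (chr11:103821782-103954056) read 3.84, 4.05 and 4.10 log2 CPM in controls and 4.55, 5.14 and 5.12 in Celf1cKO lenses. The groups were apart, with Celf1cKO 1 nearest to the controls, and the log2 fold-change was 0.94 ± 0.18 (adjusted p = 0.0201). Napa, which encodes alpha-SNAP and was the most abundant adaptor, ran from 6.74 to 6.87 in controls and 6.86 to 7.14 in Celf1cKO lenses, a difference of 0.23 (95% confidence interval 0.00 to 0.47, adjusted p = 0.163). Napb, the neural beta form, differed by 0.60 ± 0.29 (adjusted p = 0.212) at 46 to 144 reads per library.

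Of the syntaxin-binding proteins, Stxbp2, which encodes Munc18-2 and pairs with Stx11 in granule release, read 3.02, 2.74 and 3.36 in controls and 2.43, 1.10 and 2.12 in Celf1cKO lenses. Its groups were apart and Celf1cKO 2 was again the lowest, and the difference was −1.15 ± 0.35 log2 (adjusted p = 0.0769). With the replicate block, Stxbp2 was called lower (blocked adjusted p = 0.0308). Stxbp3, the widespread Munc18-3 that binds Stx4, differed by −0.33 log2 (adjusted p = 0.0783). Stxbp6, or amisyn, was the member of this group with the highest level per kb and differed by 0.11 log2.

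The Munc13 and RIM group held the largest log2 fold-change in the upward direction among called members. Unc13c (chr9:73479422-73968966) encodes Munc13-3, a priming factor known from cerebellar granule cells. It read 3.52, 3.98 and 4.12 log2 CPM in controls and 5.68, 5.63 and 5.80 in Celf1cKO lenses. The lowest Celf1cKO library was far above the highest control, and the 3 knockout libraries lay close together. Unc13c rose 3.56-fold (log2 fold-change 1.83 ± 0.16, adjusted p = 0.00855). Unc13b, the Munc13 gene of highest level per kb in control lenses, read 6.82, 6.90 and 7.05 in controls and 6.64, 6.82 and 6.54 in Celf1cKO lenses, a difference of −0.26 ± 0.10 (adjusted p = 0.144). As a share of Munc13 reads per kb, Unc13c made up a mean of 23.3% in controls (20.2% to 25.1%) and 56.1% ± 3.86 (SD, n = 3) in Celf1cKO lenses, and Unc13b 74.7% ± 2.20 and 42.3% ± 3.68. Unc13a, Unc13d and Rims3 were below the level threshold, and Rims1 and Rims2 differed by 0.34 and 0.69 log2 without being called.

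**Figure D3:**
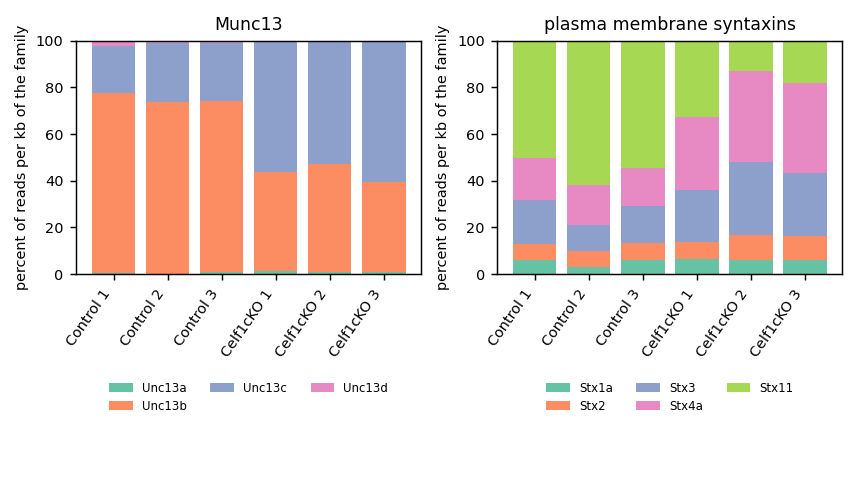
Share of each gene in its family's reads per kb of exon (y axis, percent) in each of the 6 libraries, for the Munc13 genes and 5 plasma membrane syntaxins. Unc13c takes 20.2% to 25.1% in controls and at least 52.3% in every Celf1cKO library, and Stx11 takes 50.4% to 61.9% in controls and 12.8% to 32.7% in Celf1cKO libraries.

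None of the 12 synaptotagmins was called by limma or by limma voom, and only the 5 above the level threshold could be. Of the 12, 2 had an unadjusted p under 0.05, where 29.9% of all genes did. Syt11, which has no calcium-binding activity of the classical kind and acts in endocytic and lysosomal traffic, had the highest level per kb of all 62 members in controls. It read 8.36, 8.21 and 7.42 log2 CPM in controls and 8.19, 8.06 and 8.10 in Celf1cKO lenses. The low value of Control 3 set the sign of the difference, which was 0.12 with all libraries and −0.17 without Control 3. Syt7, a calcium sensor of lysosomal and slow exocytosis, read 3.56, 1.89 and 2.37 in Celf1cKO 1, 2 and 3 against 3.09 to 3.51 in controls (log2 fold-change −0.74, adjusted p = 0.255). Syt16, below the level threshold at 1 to 18 reads per library, had a value of −1.51 log2 with groups that did not overlap (adjusted p = 0.145). Syt1, the fast calcium sensor of neurons, had 9 to 93 reads and was highest in Control 3. The complexin with a level above the threshold, Cplx2, differed by 0.11 log2 (95% confidence interval −0.24 to 0.47).

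Of the 7 synaptic vesicle proteins, Syn2 and Sv2a rose and 5 were not called, and 5 of the 7 were above the level threshold. Syn2 (chr6:115134902-115282006), a synapsin that tethers vesicles to actin, read 6.36, 6.29 and 5.29 log2 CPM in controls and 7.04, 7.67 and 7.56 in Celf1cKO lenses. Control 3 was the low control and Celf1cKO 1 the low knockout, with a gap between the groups. Syn2 rose 2.71-fold (log2 fold-change 1.44 ± 0.30, adjusted p = 0.0265) and made up 96.4% of synapsin reads per kb in controls and 98.5% in Celf1cKO lenses. Timp4 lies on the opposite strand within Syn2 and shares 90 exon bases with it, 1.28% of its exons. Sv2a (chr3:96181151-96195521), a vesicle membrane glycoprotein, read 3.26, 3.03 and 2.97 in controls and 3.68, 3.62 and 3.73 in Celf1cKO lenses. The values were tight within the groups, and Sv2a rose 1.51-fold (log2 fold-change 0.59 ± 0.14, adjusted p = 0.0345), close to the threshold. Snap91, which encodes AP180, the clathrin assembly protein that recycles vesicle membrane, differed by 0.57 log2 (adjusted p = 0.0377), just under the threshold. Syn3, at 30 to 47 reads per library and sharing 14.1% of its exon bases with Timp3 on the opposite strand, had a value of −0.62 (adjusted p = 0.183).

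SNARE genes were also set beside their textbook partners at 6 fusion steps, with partners outside the symbol rule included. Vamp3 and Vamp7 were not among the genes listed and are missing from these sets. At the plasma membrane Stx4a rose, Stx11 fell, and Snap23, Vamp8, Vamp2, Stx3 and Stx2 were not called. Vamp2 (0.48 log2, limma adjusted p = 0.0275) and Stx3 (0.43 log2, adjusted p = 0.172) had every Celf1cKO value above the controls. At the late endosome and lysosome Stx7 rose, while Vti1b (0.29 log2, adjusted p = 0.0769), Stx8 (0.07) and Vamp8 were not called. At the autophagosome Snap29 rose while Stx17, its Qa partner, differed by 0.15 log2 (adjusted p = 0.342) and Ykt6 by 0.20 log2. Between the endoplasmic reticulum and the Golgi, Sec22b, the R SNARE of both directions, read 5.36, 5.33 and 5.24 log2 CPM in controls and 6.00, 6.28 and 6.18 in Celf1cKO lenses. Sec22b rose 1.79-fold (log2 fold-change 0.84 ± 0.10, adjusted p = 0.00940), and none of its partners Stx5a, Gosr2, Bet1, Stx18, Bnip1 and Use1 was called.

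**Figure D4:**
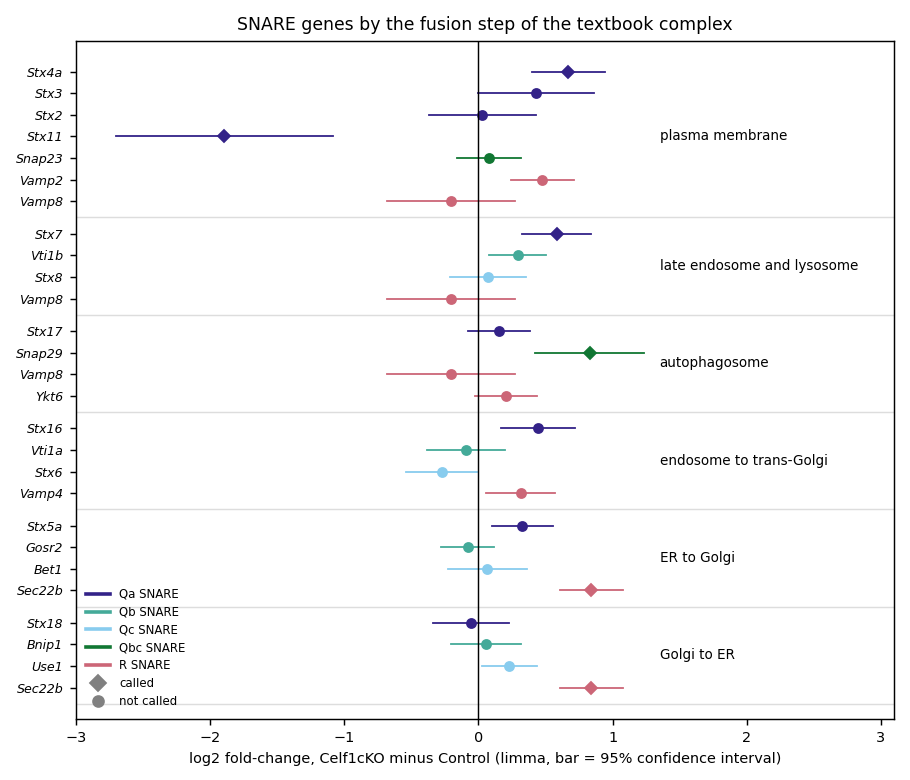
Log2 fold-change (Celf1cKO minus Control, x axis, with 95% confidence intervals from limma) of SNARE genes grouped by fusion step and coloured by their place in the bundle, with diamonds for called genes and Vamp8 and Sec22b repeated where they serve several steps. At no step were all the partners shown called. The plasma membrane step holds a gene that rose (Stx4a) and a gene that fell (Stx11).

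Of 81 genes on 5 lists of related machinery, 67 were measured, and limma called 3 higher (4.48%, against 4.77% of all genes) and none lower (against 2.63%). Without the fold and level thresholds 7 of the 67 (10.4%) had an adjusted p under 0.05, against 11.9% of all genes, and 19 (28.4%) an unadjusted p under 0.05, against 29.9%. Limma voom called 3. Only 48 of the 67 were above the level threshold. Besides Sec22b, Dnajc5, the cysteine string protein that chaperones SNAP-25, rose by 0.77 ± 0.11 log2 (adjusted p = 0.0120), and Scamp1, a secretory carrier membrane protein, by 0.64 ± 0.12 (adjusted p = 0.0212). None of 9 exocyst genes and none of 12 genes of HOPS, CORVET and related tethers was called by limma or limma voom, with 1 and 4 genes at an unadjusted p under 0.05. Of these, Exoc2 passed the adjusted p alone, at 0.44 log2 (adjusted p = 0.0425). Of 19 release effectors and active zone genes, 9 were above the level threshold and 1 was called. Of 15 vesicle membrane genes, 7 were above it and 1 was called. Below the level threshold, Doc2b (−2.37 log2, adjusted p = 0.0370), Rph3al (−1.49) and Slc18a2 (−3.27) had an adjusted p under 0.05.

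The summed level of the 62 members was 1523, 1535 and 1409 CPM in Control 1, 2 and 3 and 1669, 1857 and 1796 CPM in Celf1cKO 1, 2 and 3, a ratio of 1.19. Over the same libraries the 16 crystallin genes summed to a mean of 498333 CPM in controls and 333778 CPM in Celf1cKO lenses, and the effect of this on the other values was not tested. Scaling to total counts in place of the authors' normalization moved the median of all genes above 1 by 0.23 log2. With this scaling 15 members rose, as did 1663 of all 13931 genes. Snap25 and Syt1 were low in level and highest in Control 3, as was the summed neuron and retina list, which was lower in every Celf1cKO library than in any control. Syn2, Unc13c and Sv2a, also known from neurons, rose in Celf1cKO lenses. Stx11, which fell, was lowest in Celf1cKO 2, as were Stxbp2 and Vamp5, which were not called, and the lens epithelium and endothelial lists. Celf1 itself was also lowest in Celf1cKO 2. Of the other members with every Celf1cKO value below the controls, Stxbp3 and Syt16 were lowest in Celf1cKO 2, and Stx6, Unc13b, Vamp9 and Syn3 in Celf1cKO 3. Whether the former share a source with the marker lists or follow the level of Celf1 was not tested.

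**Figure D5:**
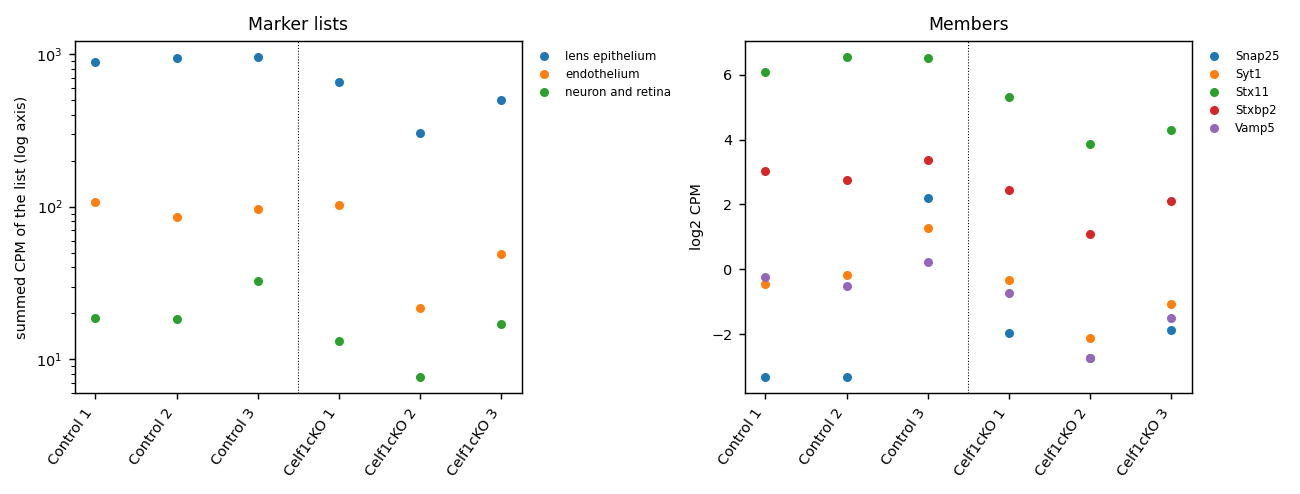
Left, summed CPM (log axis) of lens epithelium, endothelium and neuron and retina markers in each library. Right, log2 CPM of Snap25, Syt1, Stx11, Stxbp2 and Vamp5 in the same libraries, where Control 3 is highest for Snap25 and Syt1 and Celf1cKO 2 is lowest for Stx11, Stxbp2 and Vamp5.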

How the data were processed

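RNA from 3 control and 3 Celf1cKO pools of newborn lenses was sequenced on strand-specific paired-end libraries. The authors trimmed reads, aligned them to GRCm38.p6 with STAR 2.7.8a, kept unique alignments, counted per gene with featureCounts 2.0.0 and normalized with edgeR, and they deposited the result as log2 CPM per library, with an average log2 CPM per gene. The authors' own log2 fold-changes, F statistics, p-values and FDR in the same table were not used. Values of every library corresponded to whole reads in 100% of cases within a tolerance of 0.05, and these reads gave the totals.

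Groups came from the labels. limma 3.58.1 (R 4.3.3) compared them on the log2 values of all 13931 genes with a variance trend and Benjamini-Hochberg adjustment, with no block. The replicate numbers come from the labels. Deviations from group means correlated at 0.302, 0.417 and 0.348 between control and Celf1cKO libraries of the same number 1, 2 and 3. Libraries of different numbers were not compared, so these values cannot establish a pairing. The numbers were used as a block in an alternative only. The fit was tested on simulated data. Thresholds were an adjusted p under 0.05, a log2 fold-change beyond 0.58 and an average log2 CPM above 1. Levels per length used exon lengths of GENCODE M21, in which 13928 identifiers and all 62 members were found. Named genes were the called members, other members with non-overlapping groups and a fold-change beyond 0.58, the member of highest level per kb in each role group, and called genes of the related lists (others were named by their role). Counts cover all 62 members, of which 2 are not reported here by name. The members and lists were chosen with earlier results of these data known. The alternatives were the replicate block, other scalings and log scales, other variance settings, limma voom on the recovered reads and leaving out each library.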

Additional observations from a re-analysis of the deposited data

How the results depend on the processing

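Against 8 members higher and 1 lower, dropping the variance trend gave 2 higher (Unc13c and Stx4a) and 0 lower. Of all 13931 genes, 306 were then higher and 115 lower. Total-count scaling gave 15 members higher, where 1663 of all genes were. Leaving out a library gave 0 to 10 members higher and 0 to 3 lower. Over all genes these ranges were 1 to 1039 and 0 to 877. With the replicate block 9 members were higher and 2 lower, where 756 and 523 of all genes were, the block adding Vamp1 and Stxbp2. The median log2 fold-change of the 46 members above 1, 0.19, was 0.11 after quantile normalization and 0.42 after total-count scaling, and 0.17 to 0.25 when a library was left out. Without Control 2 or Celf1cKO 3 no member was called. Stx7 and Sv2a lost their call on log2(CPM + 1) and with median centring, and Stx7 also with quantile normalization. When a library was left out, Syt11 ranged from −0.17 (without Control 3) to 0.30 (without Control 1). The cause of these changes was not tested, except that leaving out a library leaves fewer samples. Robust variance estimates, limma voom and fitting only genes above 1 kept all 9 calls. Dropping the level threshold can only add calls, and no member was added. Members below the level threshold rest on few reads.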
